A study of Homo sapiens with 6 samples.

Results

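The AP-2 family comprises 5 human transcription factor genes, TFAP2A, TFAP2B, TFAP2C, TFAP2D and TFAP2E, and all 5 were found by symbol among the 23284 genes of the table. Poly-adenylated RNA had been sequenced while neural crest was induced from WA01 cells, also called H1, an established human embryonic stem cell line of wildtype genotype. The 6 libraries form 3 groups of 2, labelled ES (embryonic stem cells, day 0), preNC (pre-neural crest, day 3) and NC (neural crest, day 5). The labels give the same culture for all of them, with cells plated on Matrigel at 20000 per cm2 in medium with B27, albumin and 3 µM CHIR99021, which blocks the kinase GSK3 and so switches on WNT signalling, and with the ROCK inhibitor Y-27632 at 10 µM in the opening days. This text is repeated for the day 0 libraries, so it does not show which cells had been treated. All groups come from 1 cell line, and nothing states whether the 2 libraries of a group were separate cultures, so p-values may measure only technical spread. The descriptions mark 1 library of each group A and the other B, and what these letters stand for is not stated.

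AP-2 proteins bind DNA as dimers through a basic helix-span-helix domain, and members can pair with each other. In vertebrate embryos AP-2 alpha, encoded by TFAP2A, marks nonneural ectoderm and the neural plate border and is required for neural crest and face development. AP-2 beta, encoded by TFAP2B, acts in neural crest, its sympathetic derivatives and the kidney. AP-2 gamma, encoded by TFAP2C, is best known from trophoblast and germ cells. In the mouse, Tfap2d is known from the midbrain and Tfap2e from the olfactory bulb.

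The stage labels were checked on marker genes. Of 7 embryonic stem cell markers, 5 were lower on day 5 than on day 0 and 0 were higher, and their summed FPKM (fragments relative to transcript length and sequencing depth) was 2420 on day 0, 1087 on day 3 and 615.9 on day 5. Of 8 neural crest markers, 4 were higher on day 5 than on day 0 and 0 were lower, where 12.2% of all tested genes were higher and 14.7% lower. The sums of these 8 were 49.7, 54.2 and 184.6 on days 0, 3 and 5. The larger part of the day 5 sum came from NR2F1 (74.8) and PAX3 (39.9). FOXD3, ETS1, NGFR and B3GAT1 were not called between days 0 and 5. FOXD3 was at 17.9, 0.876 and 15.4 on days 0, 3 and 5, and ETS1 at 7.27, 1.11 and 6.14. NGFR had 7.58, 18.5 and 11.7, and B3GAT1 11.5, 18.1 and 12.2. SOX10, a defining crest factor, stood at 1.82, 3.87 and 6.33. The mesendoderm genes T, MIXL1, EOMES and SOX17 together reached only 1.62, 1.80 and 0.626, and SOX17 was listed at 0 on day 5. Even so, 1 of 2 tested was called higher on day 3 than on day 0, namely T, at 0.134, 0.777 and 0.0566 on days 0, 3 and 5. Between day 3 and day 5, 1 of 2 tested was called lower. With 2 tested, these counts cannot be read against the shares of all tested genes. Those shares were 8.96% higher and 11.6% lower on day 3 against day 0, and 5.93% and 6.68% on day 5 against day 3. An FPKM of 1 or more was reached by 13428 genes on day 0, 13250 on day 3 and 13296 on day 5. Library depth is not known.

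The 3 stages are described first by the level of each AP-2 gene, then by their comparison. For TFAP2A the FPKM was 0.108 on day 0, 1.11 on day 3 and 11.8 on day 5. TFAP2B stood at 0.0190, 0.182 and 4.57 on the same days. Both genes were nearly silent in embryonic stem cells and were at their highest in neural crest cells, so the step to day 5 brought the larger gain in FPKM for each. TFAP2C differed from them in being present from the start, at 2.57 on day 0, 3.53 on day 3 and 7.68 on day 5. TFAP2E stayed under an FPKM of 0.5 throughout, at 0.229, 0.268 and 0.497. TFAP2D was listed at 0 on day 0 and reached only 0.0154 on day 3 and 0.00721 on day 5.

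**Figure D1:**
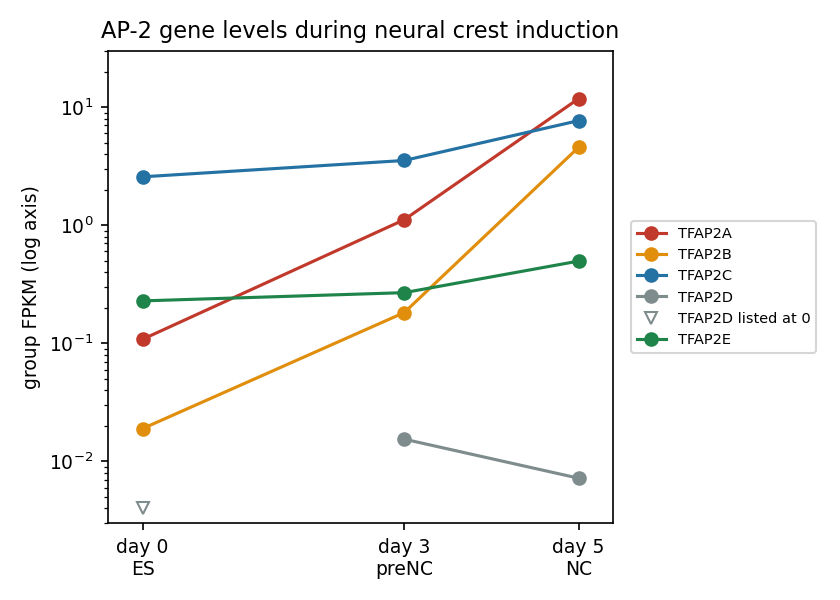
Group FPKM of the 5 AP-2 genes (log axis) against day of induction, 1 value per group with its libraries combined by the authors, the open triangle marking TFAP2D listed at 0. TFAP2A and TFAP2B climb across both intervals, TFAP2A crossing TFAP2C between day 3 (1.11 and 3.53) and day 5 (11.8 and 7.68).

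Set against the whole table, TFAP2A exceeded 27.8% of genes on day 0, 43.9% on day 3 and 73.0% on day 5. TFAP2B exceeded 19.7%, 31.5% and 57.8% of genes. TFAP2C was in mid-table on day 0, above 51.2% of genes, and above 54.7% on day 3 and 65.6% on day 5. Even at its peak TFAP2A was therefore an intermediate transcript in these bulk RNA values. Fewer cells with the transcript and less RNA per cell cannot be told apart here.

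The order of the genes changed over the course. On day 0 it ran TFAP2C, TFAP2E, TFAP2A, TFAP2B and TFAP2D. On day 3 TFAP2A stood above TFAP2E, and on day 5 the order was TFAP2A, TFAP2C, TFAP2B, TFAP2E and TFAP2D. TFAP2C exceeded TFAP2A 23.7-fold on day 0 and 3.17-fold on day 3, whereas TFAP2A exceeded TFAP2C 1.53-fold on day 5. No spread between libraries is given, so it cannot be said which neighbours in these orders differ, and the day 5 gap between TFAP2A and TFAP2C is the smallest of those ratios.

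The 5 genes together had a summed FPKM that came to 2.92 on day 0, then 5.11 on day 3 and 24.5 on day 5, an 8.39-fold higher sum on day 5 than on day 0. TFAP2C made up 87.8% of this total on day 0, 69.1% on day 3 and 31.3% on day 5. TFAP2A made up 3.70%, 21.8% and 48.0%, and TFAP2B 0.649%, 3.56% and 18.6%. AP-2 RNA was thus mostly TFAP2C before induction and mostly TFAP2A and TFAP2B in neural crest cells, although TFAP2C itself was higher on day 5 than before.

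**Figure D2:**
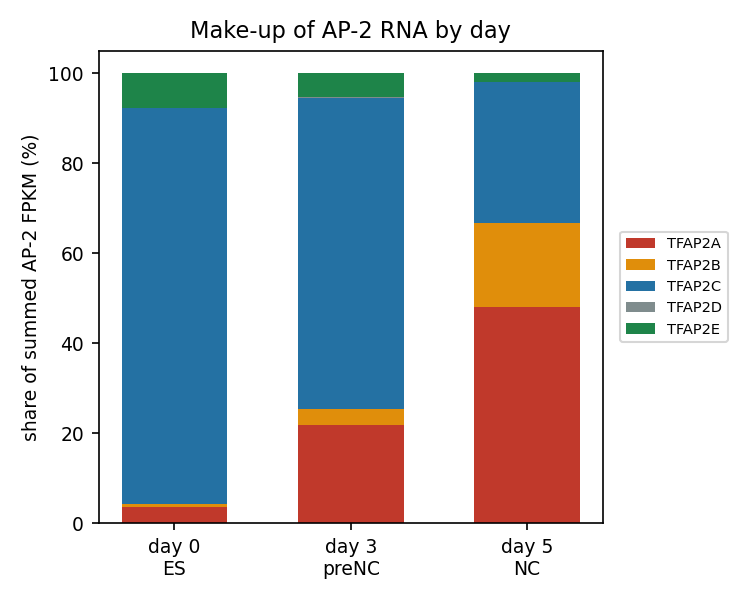
Share of the summed AP-2 FPKM (percent) held by each gene on day 0, day 3 and day 5, as stacked bars. The TFAP2C segment narrows to 31.3% on day 5, against 87.8% on day 0, while TFAP2A and TFAP2B widen.

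By day 3 TFAP2A was the AP-2 gene that had risen, while TFAP2C was not called. A gene was tested where the table gives its status as OK, and a change counts as called at a q below 0.05. Fold changes are log2 ratios of the later over the earlier day, each given ± a standard error that follows from the deposited test statistic (log2 ratio divided by statistic) and is no spread between replicates. TFAP2A was 10.3-fold higher on day 3 than on day 0 (log2 3.36 ± 0.74, q = 0.00110, the authors' deposited table). TFAP2C had a log2 ratio of 0.46 ± 0.48 (q = 0.440, the authors' deposited table), which does not show that it stayed level. TFAP2B, TFAP2D and TFAP2E were not tested in this comparison, and the 9.59-fold ratio of TFAP2B between day 3 and day 0 rests on FPKM values of 0.182 and 0.0190 without a test. The family count was thus 1 higher and 0 lower of 2 tested, where 8.96% of all tested genes were higher and 11.6% lower, too few members to read against that share.

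Between day 3 and day 5 TFAP2A, TFAP2B and TFAP2C all rose. Of the 4 members tested, 3 were higher and 0 lower on day 5, where 5.93% of all 15932 tested genes were higher and 6.68% lower. TFAP2A was 10.6-fold higher on day 5 than on day 3 (log2 3.40 ± 0.53, and q = 0.000596 from the authors' deposited table), close in log2 size to its preceding step. TFAP2B was 25.1-fold higher (log2 4.65 ± 0.61, and q = 0.000596 from the authors' deposited table). Only 23 of 15851 tested genes with a finite ratio had a larger log2 ratio than TFAP2B in this interval, and 92 had a larger one than TFAP2A. TFAP2C was 2.17-fold higher (log2 1.12 ± 0.46, and q = 0.0132 from the authors' deposited table). That call of TFAP2C is lost at a q threshold of 0.01, and its adjusted p is 0.0908 when recomputed from the test statistic under a normal distribution, the highest of a range of 0.0132 to 0.0908 over the alternatives tried. TFAP2E had a log2 ratio of 0.89 ± 0.62 without a call (q = 0.335, the authors' deposited table), and TFAP2D was not tested.

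Over the whole course the same 3 genes were higher on day 5 than on day 0. Of 4 members tested 3 were higher and 0 lower, where 12.2% of all tested genes were higher and 14.7% lower. TFAP2B had the largest ratio, 241-fold (log2 7.91 ± 0.94, and q = 0.00324 from the authors' deposited table), from a day 0 level of 0.0190 at which the ratio can rest on few fragments. TFAP2A was 109-fold higher (log2 6.77 ± 0.68, and q = 0.000596 from the authors' deposited table). TFAP2C was 2.99-fold higher (log2 1.58 ± 0.48, and q = 0.000596 from the authors' deposited table). Of 16277 tested genes with a finite ratio, 13 exceeded TFAP2B, 37 exceeded TFAP2A and 1157 exceeded TFAP2C in log2 ratio. TFAP2E was not called (log2 1.12 ± 0.62, and q = 0.204 from the authors' deposited table). The 3 comparisons share their groups and are not independent, and differences in fold between members were not tested.

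**Figure D3:**
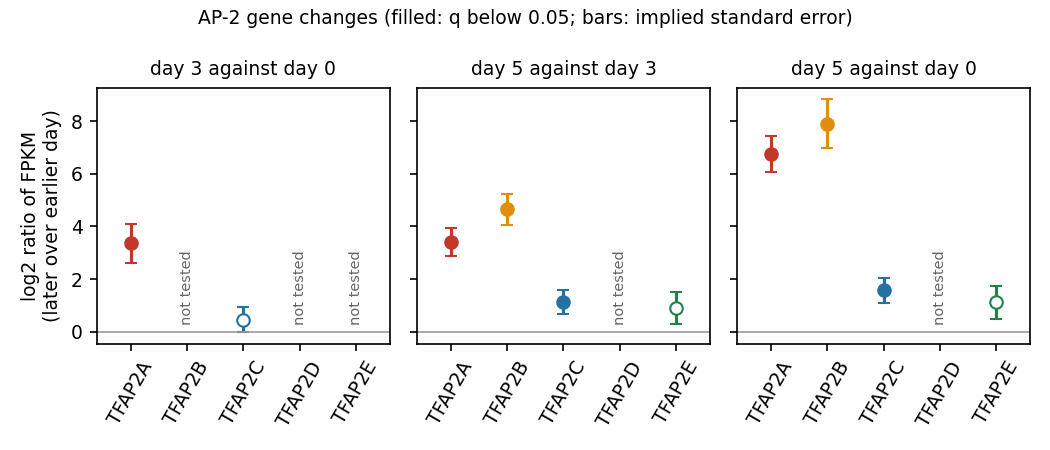
Log2 ratio of FPKM, later over earlier day, for each AP-2 gene tested in the 3 comparisons, with bars of 1 implied standard error and filled points for a q below 0.05. TFAP2A and TFAP2B lie well above TFAP2C in the day 5 comparisons, at 6.77, 7.91 and 1.58 against day 0.

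In the genome TFAP2A, TFAP2B and TFAP2D lie on chromosome 6, TFAP2C on chromosome 20 and TFAP2E on chromosome 1. TFAP2B (hg19, chromosome 6, 50786439 to 50815326) and TFAP2D (50681257 to 50740746) are neighbours, with 45692 bases between them and no other gene of the table within 300000 bases of TFAP2B. The pair differed in level, TFAP2B reaching 4.57 on day 5 where TFAP2D stood at 0.00721. TFAP2A (chromosome 6, 10396916 to 10419797) shares its listed locus with LOC100130275, which RefSeq names TFAP2A-AS1, a long noncoding RNA on the opposite strand. That transcript was listed at 0 on day 0, 0.0611 on day 3 and 0.372 on day 5, and was not called in any comparison (q = 0.763 for day 5 over day 3, the authors' deposited table). Whether counting used strand is not given in the sources used here, so reads of TFAP2A and this partner cannot be told apart where they overlap.

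Of 21 other genes within 300000 bases of an AP-2 gene, 18 were tested and 7 were called in at least 1 comparison, near the 34.1% of all tested genes that were. Of 5 genes of the table within 300000 bases of TFAP2A, 0 were higher in any comparison. GCNT2, which encodes a glycosyltransferase of branched blood group antigens, fell to 6.50 on day 3, against 18.9 on day 0 (q = 0.000596, the authors' deposited table). PAK1IP1 fell to 20.5 on day 5, against 41.2 on day 3 (q = 0.00510, the authors' deposited table). Around TFAP2C (chromosome 20, 55204358 to 55214338), 1 of 8 genes, FAM210B, was higher on day 5 than on day 0, at FPKM values of 16.4 and 7.32. The mitotic kinase gene AURKA lies in that interval and was not called, at 51.9, 44.0 and 50.7 on days 0, 3 and 5. Around TFAP2E (chromosome 1, 36038971 to 36060927), 1 of 8 genes was lower on day 5 than on day 3, NCDN, at 9.96 and 19.6. C1orf216 (8.58 and 3.99) and CLSPN (11.5 and 5.73) were higher on day 3 than on day 0, and EIF2C4 (6.12 and 2.93) was higher on day 5 than on day 0.

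The 250 bases before the annotated starts of TFAP2A and TFAP2B are shown because both genes were called higher on day 5 than on either earlier day. RefSeq promoter windows of GRCh38.p14 were found for 4 of the 5 members, and not for TFAP2C. The windows were searched on both strands for the AP-2 palindrome GCCNNNGGC, for the TCF/LEF motifs CTTTGAT and CTTTGAA, through which WNT signalling acts, and, added after the windows had been read, for TATAAA. Capitals mark TATAAA or its reverse complement TTTATA. The window of the upstream TFAP2A start is chr6:10419660-10419909 on the minus strand, and that of TFAP2B is chr6:50818621-50818870 on the plus strand.
TFAP2A: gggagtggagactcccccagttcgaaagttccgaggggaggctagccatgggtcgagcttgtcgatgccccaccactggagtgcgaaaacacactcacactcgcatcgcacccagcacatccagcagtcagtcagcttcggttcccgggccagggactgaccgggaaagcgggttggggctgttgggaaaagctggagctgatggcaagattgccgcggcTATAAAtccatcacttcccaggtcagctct
TFAP2B: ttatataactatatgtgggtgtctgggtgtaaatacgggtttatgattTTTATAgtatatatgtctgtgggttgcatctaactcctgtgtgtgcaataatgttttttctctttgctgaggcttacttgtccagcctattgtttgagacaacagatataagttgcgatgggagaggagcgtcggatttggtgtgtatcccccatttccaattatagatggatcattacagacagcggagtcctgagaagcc
In TFAP2A the match TATAAA lies at positions -30 to -25 from the transcript start, on the gene's strand, while in TFAP2B the match is on the other strand, at -202 to -197. The window of TFAP2D, nearly silent at all stages, also holds TATAAA on the gene's strand, at -55 to -50. TATAAA or its reverse complement is held by 10.7% of all 35116 promoter windows of this length. None of the windows of TFAP2A, TFAP2B, TFAP2D and TFAP2E holds GCCNNNGGC, CTTTGAT or CTTTGAA, which 19.8%, 2.26% and 3.80% of all windows do. The bases also differ in composition, with 59.6% G and C in the TFAP2A window shown and 40.8% in that of TFAP2B, against a median of 58.0% over all windows. TFAP2A has another RefSeq start 7268 bases downstream, whose window has 71.2% G and C, and 73 bases from which TFAP2A-AS1 starts in the opposite direction. Gene-level FPKM does not show which start was used.

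RNA of genes whose proteins act on AP-2 was mostly present at all stages, with 10 of 11 at an FPKM of at least 1 on each day. Of 11 AP-2 cofactors and regulators tested, 3 rose and 1 fell by day 3 relative to day 0, where 8.96% of all tested genes rose and 11.6% fell. The median of the log2 ratios of FPKM plus 1 was 0.18 for these 11 and 0.03 for all tested genes. CITED2, a coactivator that links AP-2 to CBP and p300, stood at 75.1 on day 0, 268 on day 3 and 288 on day 5. CITED2 was higher on day 3 than on day 0 (log2 1.84 ± 0.38, and q = 0.000596 from the authors' deposited table). KCTD15, an inhibitor that binds the AP-2 activation domain and limits neural crest in zebrafish, stood at 10.8, 19.3 and 17.5. It was higher on day 3 than on day 0 (log2 0.84 ± 0.39, and q = 0.0186 from the authors' deposited table). WWOX, which binds AP-2 gamma, was also higher, at 12.9 on day 3 against 4.89 on day 0. KDM5B, a histone demethylase that binds AP-2 gamma, fell to 27.9 on day 3, against 47.5 on day 0. At a q threshold of 0.01, and under the normal p of the test statistic, 1 of the 11 was higher and 0 were lower.

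Between day 3 and day 5, the interval in which 3 AP-2 genes rose, 0 of 11 of these regulators were called by Cuffdiff. In that interval 5.93% of all tested genes were higher and 6.68% lower, so a count of 0 among 11 lies near the background. None had an unadjusted p below 0.05, and 0 were called from the normal p of the test statistic. CITED2 was the most abundant of them, at 288 on day 5. From day 0 to day 5 the counts were 1 higher, CITED2, and 1 lower, CITED4, where 12.2% of all tested genes were higher and 14.7% lower. CITED4, another coactivator, was at 9.91 on day 5 against 19.1 on day 0 (q = 0.0483, the authors' deposited table). EP300 was at 21.6, 21.3 and 17.0 and CREBBP at 9.76, 14.8 and 11.1 on days 0, 3 and 5, without a call.

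The partners of AP-2 at the neural plate border, the strip of ectoderm from which crest arises, rose by day 3 and then mostly rose further. Of 9 border factors tested, 9 rose and 0 fell by day 3 relative to day 0, where 8.96% of all tested genes rose and 11.6% fell. The median log2 ratio of FPKM plus 1 was 1.19 for the border factors and 0.03 for all tested genes. On day 5, 5 were higher and 2 lower than on day 3, with a median of 2.59 where that of all tested genes was -0.04. Against day 0, 7 were higher and 1 lower on day 5. The shares of all tested genes were 5.93% higher and 6.68% lower on day 5 against day 3, and 12.2% and 14.7% against day 0. The paired box gene PAX3 stood at 0.253 on day 0, 3.36 on day 3 and 39.9 on day 5. The homeobox genes MSX1 and MSX2 stood at 0.503, 4.41 and 73.2 and at 0.405, 2.21 and 40.8. These 3 genes climbed at each step, as TFAP2A did. PAX7 had 0.0383, 0.715 and 9.31 and ZIC1 0.200, 0.483 and 8.53, so each gained most FPKM in the second interval. GBX2, which in the embryo also sets the midbrain and hindbrain boundary, was high on day 3 alone, at 0.635, 8.22 and 0.560.

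Neural crest specifiers, the factors that follow the border factors, were 5 higher and 2 lower of 11 tested by day 3, 6 higher and 0 lower of 12 between day 3 and day 5, and 7 higher and 1 lower of 12 over the whole course. In the same order, 8.96%, 5.93% and 12.2% of all tested genes were higher and 11.6%, 6.68% and 14.7% lower. Median log2 ratios of FPKM plus 1 were 0.40, 0.75 and 0.64 for the specifiers, and 0.03, -0.04 and -0.01 for all tested genes. The orphan nuclear receptors NR2F1 and NR2F2, which bind enhancers together with TFAP2A in human neural crest, stood at 0.234, 3.89 and 74.8 and at 0.161, 5.22 and 39.0. The SOXE gene SOX9 was at 3.14, 4.48 and 18.1. FOXD3 went a different way, with 17.9 on day 0, 0.876 on day 3 and 15.4 on day 5, and ETS1 likewise with 7.27, 1.11 and 6.14. The bHLH gene TWIST1 was at 0.217, 0.241 and 0.474 and was not called.

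**Figure D4:**
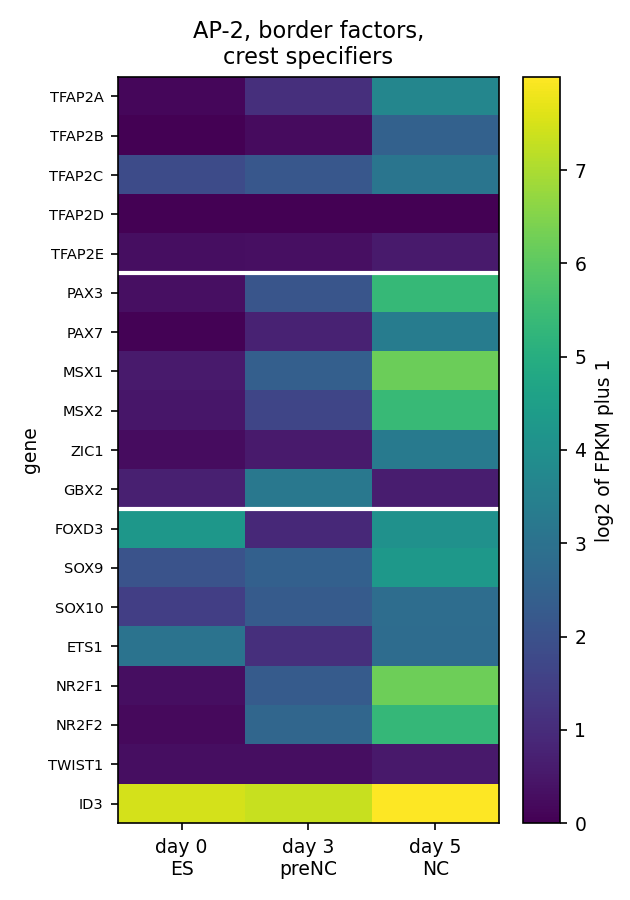
Log2 of FPKM plus 1 on day 0, day 3 and day 5 for the AP-2 genes (top block) and for those neural plate border factors (middle) and neural crest specifiers (bottom) that the text names, with brighter colours for higher levels. PAX3, MSX1, MSX2, NR2F1 and NR2F2 brighten towards day 5 as TFAP2A does, whereas FOXD3 and ETS1 are dimmest on day 3.

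A few of these partners carry the AP-2 palindrome close to their start. Of the border factors 7 of 9 had a RefSeq promoter window and 2 of these held GCCNNNGGC. Of the crest specifiers 5 of 12 had a window and 2 held it, where 23.0% of all 27305 genes do in at least 1 of their windows. Sites of a gene that rose with TFAP2A (NR2F2), of the border factor that fell again (GBX2) and of an abundant target of BMP signalling (ID3) are shown on each gene's strand, with GCCNNNGGC in capitals.
NR2F2: ttccggagtgGCCACAGGCcgtctggggt
GBX2: gccccgctcaGCCAATGGCcagaggcgcc
ID3: ggctgtgaacGCCCAGGGCcggcgggggc
These lie in GRCh38.p14 at chr15:96333616-96333644, chr2:236168455-236168483 and chr1:23559583-23559611, with the palindrome starting at -139, -87 and -100 from the transcript start. In GBX2 a further match at -80 to -72 overlaps the site shown. A match in letters is no evidence of binding, and genes with it moved in different directions here.

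Genes described as AP-2 targets in other systems, among them keratinocytes, breast cancer and melanoma cells, went both ways. Of 13 tested, 5 rose and 4 fell by day 3 relative to day 0, and 1 rose and 4 fell by day 5 relative to day 3. Of 12 tested between day 5 and day 0, 4 rose and 6 fell. In the same order, 8.96%, 5.93% and 12.2% of all tested genes rose and 11.6%, 6.68% and 14.7% fell. Over the whole course the median log2 ratio of FPKM plus 1 was -0.12 for the described targets, where that of all tested genes was -0.01. IGFBP5, which binds insulin-like growth factors, was at 1.65, 41.3 and 52.4 and CRABP2, which carries retinoic acid, at 160, 348 and 494 on days 0, 3 and 5. The epithelial cadherin CDH1 was at 75.6, 3.95 and 0.585, and the receptor gene ERBB2 at 108.6, 24.1 and 31.0. KRT5 and KRT14, keratins of basal epidermis, did not exceed 0.0330 and 0.0120 and were listed at 0 on day 5.

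TFAP2A also marks nonneural ectoderm, so genes of that tissue were counted beside it. Of 10 tested, 2 rose and 4 fell by day 3 relative to day 0. On day 5, 3 of 11 were higher and 2 lower than on day 3, and 3 of 12 were higher and 4 lower than on day 0. In the same order, 8.96%, 5.93% and 12.2% of all tested genes were higher and 11.6%, 6.68% and 14.7% lower. The summed FPKM of the 15 listed genes was 295.0 on day 0, 92.2 on day 3 and 95.7 on day 5. KRT8 and KRT18 enter these sums as 0 because their estimate failed, so the sums leave them out. Most of the listed sum came from EPCAM and KRT19 on day 0. On days 3 and 5 it came mostly from KRT19, with EPCAM at 4.01 and 1.35. KRT19, a simple keratin, was at 124.9, 81.0 and 82.8 without a call. The median log2 ratio of FPKM plus 1 between day 5 and day 0 went the other way, at 0.39 over the tested genes of the list and -0.01 over all tested genes. DLX5, a homeobox gene also among the border factors, was at 0.0966, 1.72 and 2.04 on days 0, 3 and 5 and was called higher on both later days than on day 0. EPCAM, GRHL2 and KRT7 ended at 1.35, 0.0610 and 0.336 on day 5, against 149.9, 6.41 and 8.45 on day 0. GATA3 was at 0.00952, 0.108 and 1.84 and GATA2 at 0.0787, 0.227 and 1.55 on days 0, 3 and 5, and both were called higher on day 5 than on day 3. The epidermal factor TP63 did not exceed 0.109, and the estimate of KRT8 and KRT18 failed in every group, where both are listed at 0. The part of such cells in the rise of TFAP2A was not tested.

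TFAP2C was set beside the cell types it is best known from. Of 11 trophoblast and amnion genes only 3 to 5 were tested, with 1 higher and 2 lower on day 3 relative to day 0, 2 higher and 2 lower on day 5 relative to day 3, and 1 higher and 2 lower on day 5 relative to day 0. Their summed FPKM was 13.4, 5.47 and 6.61 on days 0, 3 and 5. The trophoblast genes CGA, GCM1 and ELF5 did not exceed 0.0677, 0.0518 and 0.0227, with ELF5 listed at 0 on day 0 and day 3. Other members of the list were low but not as near 0. VTCN1 was at 0.182, 0.696 and 0.231, HAND1 at 0.0278, 0.330 and 0.253, and ISL1 at 0.101, 0.0186 and 0.117 on days 0, 3 and 5. GATA2 and GATA3, which this list shares with nonneural ectoderm, were the 2 that were higher on day 5 than on day 3. KRT7 and IGFBP3, a growth factor binding protein gene at 4.48, 2.28 and 2.03, made up most of the sum on day 0. Of primordial germ cell genes 1 was higher and 3 lower of 5 tested on day 5 than on day 0, with sums of 22.3, 20.7 and 11.8 and NANOS3 under 0.1 throughout. Naive pluripotency genes were 0 higher and 3 lower of 5 tested, with sums of 8.44, 1.12 and 1.58, and KLF17 was listed at 0 on day 0 and day 3. Between day 0 and day 5, 12.2% of all tested genes were higher and 14.7% lower. The shares were 8.96% and 11.6% on day 3 against day 0, and 5.93% and 6.68% on day 5 against day 3. These 3 lists have too few tested members to read against such shares. The summed levels of these 3 lists were lower on day 5 than on day 0, while TFAP2C was higher. Their median log2 ratios of FPKM plus 1 between those days were 0.06 for trophoblast and amnion genes, -0.56 for primordial germ cell genes and -0.77 for naive pluripotency genes, so the sum and the median of the trophoblast list differ in sign. The part of such cells in the level of TFAP2C was not tested.

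Derivatives in which AP-2 genes act later were little represented. Of 8 sympathetic neuron genes, the lineage of TFAP2B, 4 were tested between day 5 and day 0 and 1 was higher. HAND2 did not exceed 0.0295. Of melanocyte genes 2 were higher and 2 lower of 6 tested on day 5 than on day 0. Both lists have too few tested members to read against the 12.2% higher and 14.7% lower of all tested genes. MITF and TYR were at 0.289 and 0.0170 on day 5, while PMEL stood at 56.4, 137 and 116.

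**Figure D5:**
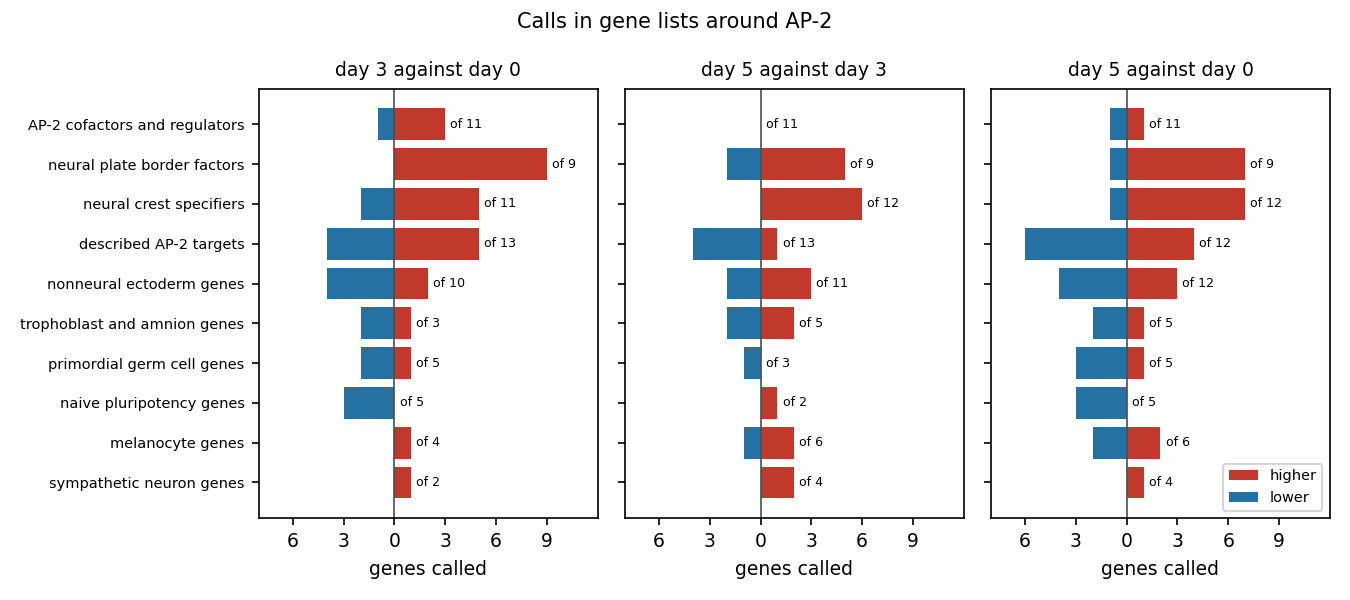
Number of genes called higher (red, right) and lower (blue, left) in each list around AP-2, in the 3 comparisons, with the number tested beside each bar. Border factors lean to higher at every comparison (9, 5 and 7), and described AP-2 targets are split.

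The patterns most like those of the AP-2 genes were sought among 4962 genes that reached an FPKM of at least 1 and were called in at least 1 comparison. Likeness was the distance between profiles of log2 FPKM plus 1 over the 3 days, each centred on its mean. With 3 points a profile holds little information, and the distances are descriptions. Nearest to TFAP2A were EPHA7, PAX6, WNT2B, SULF1 and GAS1, at distances of 0.0226 to 0.123. The ephrin receptor gene EPHA7 had FPKM values of 2.03, 4.68 and 33.3 on days 0, 3 and 5. Nearest to TFAP2B were NEDD9, GDF7, VIT, SMAD9 and GRP, with GDF7, a BMP ligand of the roof plate, at 0.0360, 0.168 and 4.32. Nearest to TFAP2C were ZFYVE16, SETD7, TMTC2, ZNF587 and TMEM65, at distances of 0.0115 to 0.0297. Among the AP-2 genes themselves TFAP2A and TFAP2B were closest, at 0.776, then TFAP2B and TFAP2C at 1.01 and TFAP2A and TFAP2C at 1.65. With a pseudocount of 0.1, 0 of the 5 genes named for TFAP2A, 1 of the 5 for TFAP2B (GDF7) and 0 of the 5 for TFAP2C were named again.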

How the data were processed

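The submitters' processing notes name TopHat2 2.0.10, Cuffdiff 2.1.1 and the build hg19. Annotation or strandedness is not given in the sources used here. Per the file headers, the deposited Cuffdiff table gives for each gene and comparison a status, the authors' FPKM of each group with its libraries combined, a test statistic (used as a score) and the authors' p-value and q-value. No value per library was used, so no spread, replicate check or test of another kind could be made, and depth is unknown. The deposited q equals a Benjamini-Hochberg adjustment over all 48572 tested rows to within 5.25e-07, and the smallest p is 5e-05, so q cannot rank the strongest genes.

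Ratios were recomputed from FPKM with pandas 2.3.3 and numpy 2.4.6, normal p-values with scipy 1.17.1, since the deposited fold column holds error text. Gene lists use log2 of FPKM plus 1, which understates changes of low genes. Locus starts were taken as counted from 0, since end minus start equals the reference length for 1901 genes, and that plus 1 does for 253. A listed locus can be merged over overlapping genes. Of the lists, all members are counted and up to 4 with the largest change at an FPKM of at least 1 are named, plus genes that make a count clear. A few, such as KRT5, TP63, CGA and TWIST1, were named after their values were seen. For each AP-2 gene at an FPKM of at least 1 the 5 nearest patterns are named, and all table genes within 300000 bases of a member were read. The members and lists were chosen with earlier results of these data known. A planned description of the proteins was not made, since protein sequences were not used here. Some listed genes are counted but not reported singly here. The steps were tested on simulated data. Alternatives were a q threshold of 0.01, adjustment within each comparison, a normal p from the statistic, a minimum FPKM of 1, pseudocounts of 1 and 0.1, median centring and rescaling without the 3 most abundant genes.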

Additional observations from a re-analysis of the deposited data

How the results depend on the processing

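Of 80 recomputed values of AP-2 genes, 78 kept their direction and their side of the threshold. The other 2 are the rise of TFAP2C between day 3 and day 5, which lost its call at a q threshold of 0.01 and under the normal p of the test statistic (log2 1.12 in both). Much of this was fixed in advance. The 10 values for each pseudocount, for median centring and for rescaling carried over the deposited call, so only their direction could change. A pseudocount cannot reverse a direction. The other alternatives kept the deposited ratio, so only the call could change. On the log2 scale of FPKM plus 1 the day 5 to day 0 ratios shrink to 3.53 for TFAP2A and 2.45 for TFAP2B, whose earlier levels are low. Leaving out the 3 most abundant genes shifts every day 5 log2 ratio up by 0.15 against day 3 and 0.13 against day 0, since their share differs between groups. At a q threshold of 0.01 the genes of the AP-2 lists higher on day 3 than on day 0 number 17, against 26 in the main count, and all tested genes higher on day 3 than on day 0 number 946, higher on day 5 than on day 3 586 and lower 619. With the normal p those counts are 16 listed genes, and 915 (day 3 over day 0), 530 (day 5 over day 3) and 1238 (day 5 over day 0) higher among all tested genes. The cause was not tested beyond the stricter threshold itself. Of 312 counts of single lists, 53 moved by over 1.5 times. No paired analysis was possible because the table holds no value per library, so whether the marks A and B pair cultures across days was not tested, and for the same reason no replicate could be left out. Depth and the spread between libraries are unknown, which limits TFAP2D, TFAP2E and the early levels of TFAP2B most.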

Other observations

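Some genes with large test statistics carry no call where a group is near 0. GATA3 was at 1.84 on day 5 against 0.00952 on day 0, but not called (q = 0.460, the authors' deposited table). The endothelin receptor gene EDNRB fell short of a call on day 3, at 0.0340 against 3.55 on day 0, with a statistic of -5.68 (q = 0.479, the authors' deposited table). TFAP2B, at 4.57 on day 5 against 0.0190 on day 0, had a statistic of 8.45 and was called. Among tested genes with a statistic of at least 3 in size between day 5 and day 0, 74.8% were called where the lower group was under an FPKM of 0.1 (300 of 401), and 94.9% where it was at least 0.1 (2110 of 2224). The homeobox gene PHOX2A, a factor of autonomic neurons, was at 0.304 on day 0, 13.2 on day 3 and 0.355 on day 5, and was not called (q = 0.478 for day 3 over day 0, the authors' deposited table). PHOX2A is a different case, since its statistic was small, at 0.945 for day 3 over day 0 and -1.81 for day 5 over day 3.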
